A study of Homo sapiens with 6 samples.

Results

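The genes described here encode the proteins that prepare, start and carry out DNA replication, together with the E2F factors and cyclin E genes that act on them at the G1/S transition. The 60 members were given by name, grouped by their role, and each matched 1 of the 58219 gene identifiers in the count files. All 60 had enough counts to be tested, among 14723 genes tested, and no member had fewer than 217 counts in any library. The 6 libraries are of SNU-449, a human cell line grown from hepatocellular carcinoma. In 3 libraries the cells stably expressed Yes, a tyrosine kinase, in its wild-type form (Yes WT), and in 3 they stably expressed Yes T348I, which the series describes as a gatekeeper mutant. Cells of both lines were given 100 nM dasatinib, which inhibits ABL and the SRC family kinases to which Yes belongs, and no library without the drug was analysed here. The comparison asks which transcripts differ when Yes carries the gatekeeper change in the presence of the inhibitor. The sources used here do not give whether a line is a clone or a pool, or what drives the introduced gene, and the native YES1 gene is present in both. No label tells whether the replicates were grown as separate cultures, so that p-values measure the spread between libraries, which may be technical, and no more.

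Replication starts at origins. In G1, the origin recognition complex (ORC), CDC6 and CDT1 load the MCM2 to MCM7 helicase onto DNA, and geminin blocks CDT1 once S phase has begun. Kinases of CDC7 with DBF4 and of CDK2 with cyclins then recruit CDC45 and the GINS complex, which turn the loaded ring into a moving helicase, and polymerases, the PCNA clamp and its loader follow. Many of these genes are classic targets of E2F factors, which the retinoblastoma protein RB1 holds back in G1.

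Gene totals ranged from 14360137 to 19608763 counts per library. Levels are given as CPM, the counts divided by the TMM-scaled library total and multiplied by 1e6, and every fold change sets Yes T348I over Yes WT. SE is the standard error of the log2 fold change. YES1 was at 357, 368 and 367 CPM in Yes WT replicates 1 to 3 against 382, 411 and 435 CPM in Yes T348I replicates 1 to 3. YES1 was thus higher in Yes T348I without overlap (log2 fold change of 0.17 with SE 0.04, adjusted p = 9.94e-05). These reads can come from the native and the introduced gene. Of the hepatocyte markers, ALB, APOA1, APOB and TTR stayed at or under 0.669 CPM in every library, SERPINA1 reached at most 1.38 CPM, and TF, at 2.51, 1.45 and 2.61 CPM in Yes WT against 1.38, 0.549 and 0.423 for Yes T348I, fell (log2 fold change of -1.37 with SE 0.30, adjusted p = 1.58e-04). The keratin gene KRT18 was at 249 to 277 CPM and did not pass. KRT8, at 157 to 175 CPM, did not pass either (log2 fold change of -0.07 with SE 0.04, adjusted p = 0.103). The epithelial cadherin gene CDH1, at 1.13 to 3.95 CPM, fell by 1.16 (SE 0.21) on the log2 scale. AFP stayed at or under 1.74 CPM and did not pass (log2 fold change of -0.57 with SE 0.26, adjusted p = 0.0559). EPCAM, at or under 0.736 CPM, and GPC3, at or under 0.137 CPM, had too few counts to be tested. For AFP and EPCAM every Yes T348I value lay under every Yes WT value. Of the mesenchymal markers, VIM (vimentin) rose by 0.12 (SE 0.04) and was at 6519 to 6894 CPM in Yes T348I, CDH2 rose by 0.57 (SE 0.03), and FN1 fell by 0.39 (SE 0.03). CD3E, a marker of T cells, had no count. The leukocyte markers PTPRC, CD3E, CD14 and CD68 summed to 2.35 to 3.01 CPM in Yes WT and 0.564 to 1.33 CPM in Yes T348I, and CD14 was at 2.32, 2.21 and 2.74 CPM in Yes WT against 1.13, 0.823 and 0.212 for Yes T348I. The endothelial markers summed to 1.07 to 1.34 and 0.353 to 0.513 CPM, and the fibroblast and stellate markers to 5.87 to 8.03 and 4.18 to 5.38 CPM. Their part in the results was not tested.

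Nearly all of the listed members were higher in Yes T348I, each by a modest amount. Of the 60 members 57 rose and none fell with an adjusted p under 0.05 (edgeR quasi-likelihood test, adjusted over all genes tested). Among all genes tested, 28.0% rose and 27.3% fell by the same criterion. The members were chosen with earlier results of these data known. Their contrast with all genes may thus come from that choice and is a description only. The median log2 fold change of the members was 0.43, a 1.35-fold level, against -0.01 over all genes tested, and 8.06% of all genes tested had a change at or above that median. Single members ranged from 1.02-fold (RPA3) to 1.69-fold (E2F8), so that 9 members reached 1.5-fold and none 2-fold. Against a minimum change of 1.2-fold (edgeR glmTreat), 43 members were higher and none lower, where 9.47% of all genes were higher and 12.5% lower. In 56 members every Yes T348I value lay above every Yes WT value, which held for 29.9% of all genes tested, and the opposite order, found in 29.7% of all genes, occurred in no member. The 3 members that did not pass were RPA3, E2F2 and E2F3. No member had a log2 fold change below 0, so none was lower at an unadjusted p under 0.05, and none fell with DESeq2 or limma-voom. RFC1 passed by little (adjusted p = 0.0498), and its values overlapped between the groups.

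The spread between libraries was small beside these differences. The coefficient of variation of a member over 3 libraries had a median of 2.81% in Yes WT and 3.75% in Yes T348I, and its largest value was 9.07% (RPA3 in Yes T348I). Summed over the 60 members, the level was 4118, 4101 and 4078 CPM in the Yes WT libraries against 5445, 5460 and 5436 CPM in those of Yes T348I, a 1.33-fold level without overlap. No library of a group stood apart across the members. In Yes T348I, replicates 1, 2 and 3 held the highest value of 21, 24 and 15 members. In such bulk RNA a larger share of cells in S phase and more RNA per cell cannot be told apart. MKI67 and TOP2A, genes of cycling cells that peak later in the cycle, had fold changes below the median of the members. Cyclin A2 (CCNA2), of the other pathway genes described below, rose by 0.53 on the log2 scale. MKI67 was at 553, 494 and 498 CPM in Yes WT against 510.4, 587 and 544 for Yes T348I, with overlapping groups (log2 fold change of 0.09 with SE 0.04, adjusted p = 0.0633). TOP2A was at 751, 742 and 734 CPM in Yes WT against 771, 808 and 784 for Yes T348I (log2 fold change of 0.08 with SE 0.03, adjusted p = 0.0219). MKI67 passed without Yes WT replicate 1 or Yes T348I replicate 1 (log2 fold change 0.14 in both, adjusted p = 0.00511 and 5.72e-04), with no low-count filter (adjusted p = 0.00316) and with unstranded counts (adjusted p = 0.0417). Its log2 fold change was 0.06 without Yes WT replicate 2, and leaving out Yes T348I replicate 2 gave 0.03 (adjusted p = 0.302 and 0.437). TOP2A did not pass without Yes WT replicate 2 or 3 or Yes T348I replicate 2 (adjusted p = 0.0533, 0.0926 and 0.0528), nor with upper quartile scaling or library size only (log2 fold change 0.04 and 0.05, adjusted p = 0.237 and 0.205). The part of MKI67 and TOP2A in the rise of the members was not tested.

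**Figure D1:**
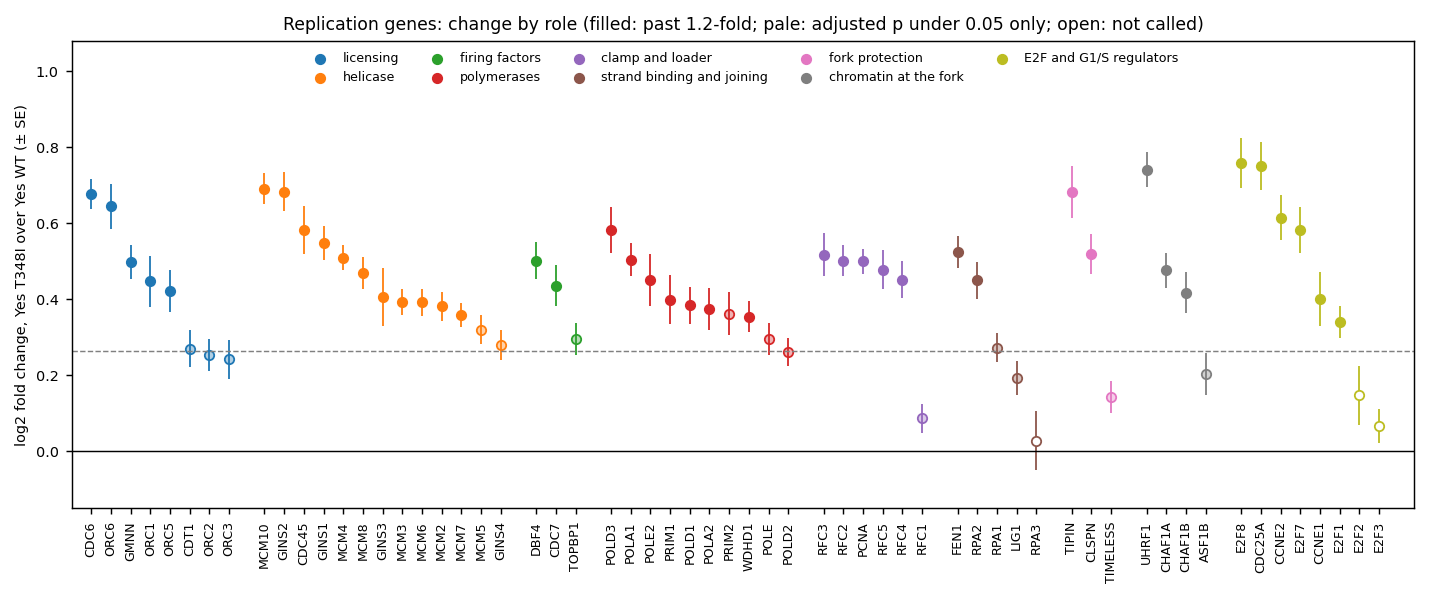
Log2 fold change of each of the 60 members (Yes T348I over Yes WT, with its SE), grouped by role along the horizontal axis; the dashed line marks 1.2-fold. Filled points passed the test against 1.2-fold (43 members), pale points only the plain test, and open points (RPA3, E2F2 and E2F3) neither; every point lies above 0.

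**Figure D2:**
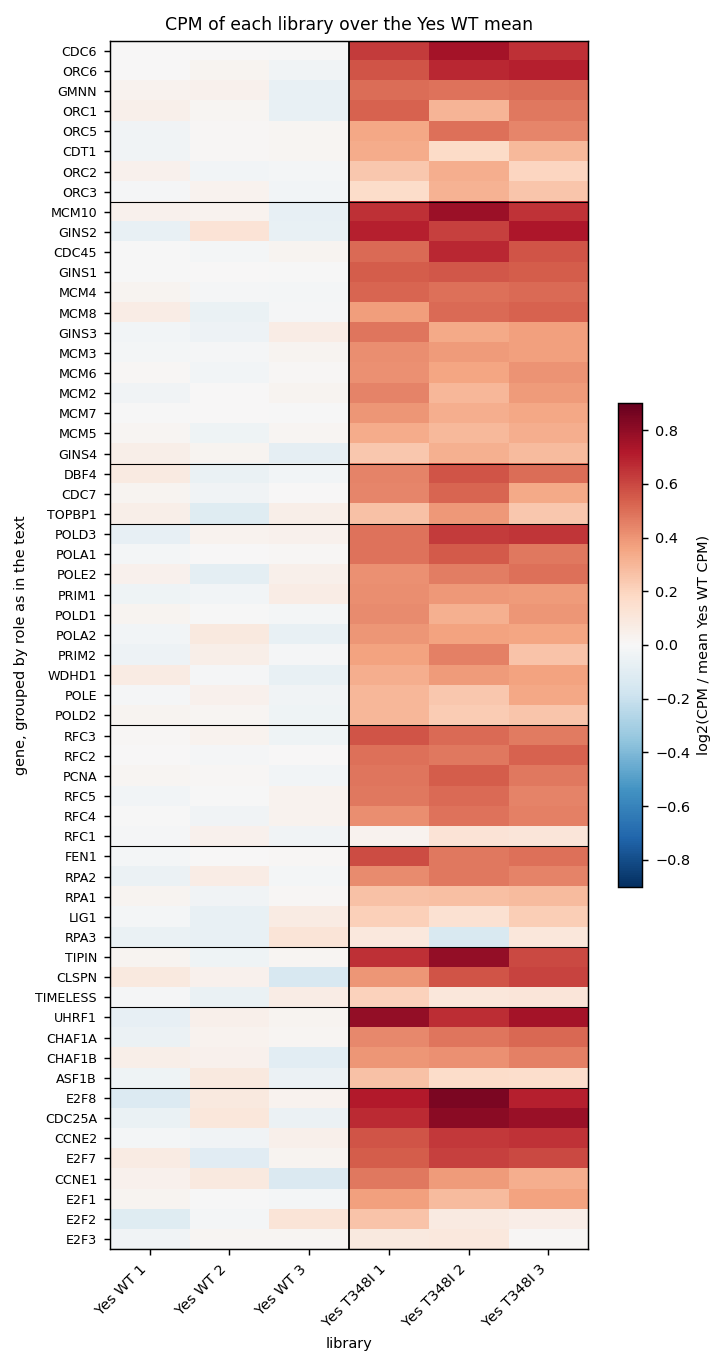
Level of each member (rows, in the order of the roles) in each of the 6 libraries (columns), as the log2 ratio of its CPM to the mean of Yes WT. The 3 Yes T348I columns are shifted upwards for nearly every gene, while RFC1, RPA3, TIMELESS, E2F2 and E2F3 stay close to the Yes WT mean.

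As a description, the promoters of the members were searched for sequence words that G1/S and G2/M genes are known for. The RefSeq promoter table (GRCh38.p14, 250 bases before to 50 after the gene start) held 52 of the members. CCNE2, E2F8, GINS4, MCM4, MCM5, POLD3, RPA2 and RPA3 had no entry. The E2F site was searched as TTTCGCGC, TTTGGCGC, TTTCCCGC or TTTGGCGG on both strands. Such a word stood in 29 of the 52 promoters (55.8%), against 5.36% of 10732 promoters of the other genes tested and 3.35% of all 35116 promoters in the table. For the other pathway genes described below, it was 9 of 51 promoters (17.6%). All 10 helicase genes with an entry had one, and MCM6 had 4 on both strands that overlap in pairs. A CCAAT box (CCAAT on either strand) stood in 59.6% of the members' promoters and 36.6% of those of the other genes tested. In the other pathway genes its share was 49.0%. The CHR element (TTTGAA or TTCGAA), a word of G2/M promoters, stood in 7.69% (members), 11.3% (other genes tested) and 11.8% (other pathway genes). Members with and without an E2F word had similar changes, a comparison that was not tested. The median log2 fold change was 0.41 in the 29 with a word and 0.42 in the 23 without, and 2 members with a word, E2F2 and E2F3, did not pass the test. A match of letters is a description and shows no binding. Only these exact words were searched, so a promoter without one may still hold an E2F site.

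Shown are the 120 bases before the RefSeq gene start, 5′ to 3′, with E2F words in capitals. They cover 4 members with an E2F word that are among the strongest rises, 1 strong rise without such a word (TIPIN) and 1 member with a word that did not pass (E2F3). CDC6 has another such word just after its start, outside the stretch. Coordinates are GRCh38.p14.
CDC25A (chr3:48188418-48188537, minus strand): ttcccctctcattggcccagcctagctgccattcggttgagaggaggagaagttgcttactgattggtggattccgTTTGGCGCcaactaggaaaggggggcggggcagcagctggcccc
UHRF1 (chr19:4909381-4909500, plus strand): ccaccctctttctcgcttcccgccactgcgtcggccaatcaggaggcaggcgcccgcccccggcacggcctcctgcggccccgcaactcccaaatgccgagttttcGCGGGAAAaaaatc
GINS2 (chr16:85688955-85689074, minus strand): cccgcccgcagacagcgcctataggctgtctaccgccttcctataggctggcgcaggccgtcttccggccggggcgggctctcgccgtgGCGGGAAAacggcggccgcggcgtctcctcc
CDC6 (chr17:40287759-40287878, plus strand): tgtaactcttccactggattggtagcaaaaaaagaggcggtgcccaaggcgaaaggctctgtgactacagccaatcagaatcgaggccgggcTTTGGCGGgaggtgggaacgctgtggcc
TIPIN (chr15:66386718-66386837, minus strand): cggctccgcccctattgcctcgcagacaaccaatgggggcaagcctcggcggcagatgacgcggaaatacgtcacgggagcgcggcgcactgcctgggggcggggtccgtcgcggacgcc
E2F3 (chr6:20401759-20401878, plus strand): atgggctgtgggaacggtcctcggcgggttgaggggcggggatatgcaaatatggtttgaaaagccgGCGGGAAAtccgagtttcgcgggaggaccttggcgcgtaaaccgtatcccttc
In CDC25A and CDC6 the word is on the strand of the gene and begins 44 and 28 bases before the start. In UHRF1, GINS2 and E2F3 it is on the other strand, so that its reverse complement is printed, and begins 14, 31 and 53 bases before the start.

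All 8 licensing genes rose, 5 of them past 1.2-fold, with a median log2 fold change of 0.43. CDC6, the ATPase that joins ORC to load the helicase (GRCh38 chromosome 17, 40287633 to 40304657), had the largest rise of this role. It was at 95.0, 95.4 and 94.6 CPM in Yes WT replicates 1 to 3 against 147, 159.6 and 149.7 CPM in Yes T348I replicates 1 to 3, with every Yes T348I library far above Yes WT (log2 fold change of 0.68 with SE 0.04, adjusted p = 1.51e-18). ORC6, the smallest ORC subunit, was at 26.2, 26.6 and 25.6 CPM in Yes WT against 38.8, 41.8 and 42.5 for Yes T348I (log2 fold change of 0.64 with SE 0.06, adjusted p = 2.09e-12). ORC1, the ATPase subunit known to vary through the cell cycle, was at 23.0, 22.5 and 21.3 CPM in Yes WT against 32.2, 27.5 and 31.0 for Yes T348I (log2 fold change of 0.45 with SE 0.07, adjusted p = 3.46e-07), where replicate 2 of Yes T348I was the lowest of its group. The subunits ORC2 and ORC3 changed by less than 1.2-fold. ORC2 was at 83.6, 80.0 and 80.0 CPM in Yes WT against 96.0, 102 and 93.1 for Yes T348I (log2 fold change of 0.25 with SE 0.04, adjusted p = 2.20e-06). ORC3 was at 43.4, 44.6 and 42.9 CPM in Yes WT against 49.0, 54.2 and 52.0 for Yes T348I (log2 fold change of 0.24 with SE 0.05, adjusted p = 1.05e-04). ORC5 lay between ORC1 and ORC2, with a log2 fold change of 0.42 (SE 0.05), and passed the test against 1.2-fold (glmTreat adjusted p = 0.00413). CDT1, the loading factor, was at 57.1, 58.5 and 59.0 CPM in Yes WT against 73.4, 65.6 and 71.1 for Yes T348I (log2 fold change of 0.27 with SE 0.05, adjusted p = 5.13e-06). Its inhibitor geminin (GMNN) was at 56.8, 57.2 and 53.2 CPM in Yes WT against 78.9, 78.2 and 79.0 for Yes T348I (log2 fold change of 0.50 with SE 0.05, adjusted p = 1.43e-12). Groups did not overlap in any of these genes.

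All 13 helicase genes rose, 11 of them past 1.2-fold (median log2 fold change 0.41). The 6 subunits of the MCM ring join in equal numbers, and all rose, from 1.25-fold for MCM5 to 1.42-fold for MCM4. Their summed level was 1085, 1077 and 1087 CPM in Yes WT against 1462, 1403 and 1429 CPM in Yes T348I, a 1.32-fold level. MCM4 was at 249, 244 and 242 CPM in Yes WT replicates 1 to 3 against 352, 345 and 349.5 CPM in Yes T348I replicates 1 to 3 (log2 fold change of 0.51 with SE 0.03, adjusted p = 2.27e-17). MCM2, MCM3, MCM6 and MCM7 rose by log2 fold changes of 0.38 (SE 0.04), 0.39 (SE 0.03), 0.39 (SE 0.03) and 0.36 (SE 0.03). MCM5 rose by 0.32 (SE 0.04) and did not pass the test against 1.2-fold (glmTreat adjusted p = 0.0856). Per length, as mean CPM per kb of exon in Yes WT, the levels ran from 14.0 for MCM5 and 23.4 for MCM2 through 35.1, 36.8 and 45.1 for MCM4, MCM6 and MCM3 to 69.4 for MCM7. The exon length is that of all annotated exons, so long or rare exons lower such a value.

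MCM10, GINS2, CDC45 and GINS1 had larger fold changes than any ring subunit, a difference that was not tested. MCM10, which helps to start the loaded helicase, was at 92.9, 92.2 and 86.0 CPM in Yes WT replicates 1 to 3 against 142, 154 and 142 CPM in Yes T348I replicates 1 to 3 (log2 fold change of 0.69 with SE 0.04, adjusted p = 3.94e-18). CDC45, the partner of MCM and GINS in the active helicase, was at 24.3, 24.1 and 24.7 CPM in Yes WT against 34.7, 39.1 and 36.2 for Yes T348I (log2 fold change of 0.58 with SE 0.06, adjusted p = 1.21e-10). The GINS complex has 4 subunits, and all of them rose without overlap of the groups. GINS2 was at 41.2, 46.9 and 41.0 CPM in Yes WT against 69.7, 66.0 and 71.1 for Yes T348I (log2 fold change of 0.68 with SE 0.05, adjusted p = 7.88e-15). GINS1 was at 50.1, 50.5 and 50.1 CPM in Yes WT against 73.3, 73.9 and 73.1 for Yes T348I (log2 fold change of 0.55 with SE 0.05, adjusted p = 1.10e-13). GINS3 was at 15.3, 15.0 and 16.3 CPM in Yes WT against 21.7, 19.7 and 20.0 for Yes T348I (log2 fold change of 0.41 with SE 0.08, adjusted p = 1.65e-05). GINS4, the least changed of them, was at 119, 117 and 109 CPM in Yes WT against 136, 143 and 140.3 for Yes T348I (log2 fold change of 0.28 with SE 0.04, adjusted p = 7.55e-08). GINS4 did not pass the test against 1.2-fold (glmTreat adjusted p = 0.401). MCM8, a relative of the ring subunits with a known role in repair, was at 92.0, 84.2 and 86.9 CPM in Yes WT against 114, 125 and 127 for Yes T348I (log2 fold change of 0.47 with SE 0.04, adjusted p = 2.30e-12).

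The 3 firing factors rose. DBF4, the activating subunit of CDC7, was at 57.3, 51.8 and 53.1 CPM in Yes WT replicates 1 to 3 against 73.7, 80.0 and 76.8 CPM in Yes T348I replicates 1 to 3 (log2 fold change of 0.50 with SE 0.05, adjusted p = 5.25e-12). The kinase gene CDC7 was at 40.0, 38.5 and 39.5 CPM in Yes WT against 53.5, 56.4 and 49.8 for Yes T348I (log2 fold change of 0.44 with SE 0.05, adjusted p = 2.99e-09). TOPBP1, the scaffold that brings in CDC45 and GINS, was at 110.0, 98.2 and 109.8 CPM in Yes WT against 127, 139 and 125 for Yes T348I (log2 fold change of 0.30 with SE 0.04, adjusted p = 1.67e-07), a 1.23-fold level that did not pass the test against 1.2-fold (glmTreat adjusted p = 0.268). In all 3 genes every Yes T348I value lay above every Yes WT value.

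All 10 genes of the polymerases and of WDHD1, which ties polymerase alpha to the helicase, rose, 7 of them past 1.2-fold (median log2 fold change 0.38). POLD3, an accessory subunit of polymerase delta, was at 26.0, 27.9 and 28.1 CPM in Yes WT replicates 1 to 3 against 38.2, 42.2 and 42.6 CPM in Yes T348I replicates 1 to 3 (log2 fold change of 0.58 with SE 0.06, adjusted p = 5.50e-11). POLA1, the catalytic subunit of the polymerase alpha that lays down primers, was at 59.8, 60.6 and 60.7 CPM in Yes WT against 84.8, 88.4 and 83.7 for Yes T348I (log2 fold change of 0.50 with SE 0.04, adjusted p = 3.76e-13). The other 3 parts of that complex, POLA2, PRIM1 and PRIM2, rose by log2 fold changes of 0.37 (SE 0.05), 0.40 (SE 0.06) and 0.36 (SE 0.06). Of polymerase epsilon, the leading strand enzyme, the catalytic subunit POLE was at 82.9, 85.9 and 81.6 CPM in Yes WT against 102, 98.5 and 106 for Yes T348I (log2 fold change of 0.30 with SE 0.04, adjusted p = 7.12e-08). Its partner POLE2 was at 20.5, 18.8 and 20.7 CPM in Yes WT against 26.6, 27.5 and 28.2 for Yes T348I (log2 fold change of 0.45 with SE 0.07, adjusted p = 2.93e-07). Polymerase delta showed a wider range. Its catalytic subunit POLD1 rose by 0.38 (SE 0.05), and POLD2 was at 124, 123 and 118 CPM in Yes WT against 149.9, 142 and 145 for Yes T348I (log2 fold change of 0.26 with SE 0.04, adjusted p = 1.04e-07), the smallest change among these genes. WDHD1 rose by 0.35 (SE 0.04).

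PCNA, the sliding clamp, was the member with the highest level per length. In Yes WT its mean was 137 CPM per kb of exon, against a median of 11.7 over the 60 members, and in Yes T348I it was 194. It was at 204, 203 and 199 CPM in Yes WT replicates 1 to 3 against 281, 295 and 281 CPM in Yes T348I replicates 1 to 3 (log2 fold change of 0.50 with SE 0.03, adjusted p = 1.59e-16). The clamp loader is a ring of RFC1 and 4 smaller subunits. The small subunits rose, from 1.37-fold to 1.43-fold. RFC3 was at 29.0, 29.4 and 28.0 CPM in Yes WT against 42.7, 40.9 and 39.8 for Yes T348I (log2 fold change of 0.52 with SE 0.06, adjusted p = 2.86e-10). RFC2 was at 72.0, 71.1 and 72.0 CPM in Yes WT against 101, 99.5 and 104 for Yes T348I (log2 fold change of 0.50 with SE 0.04, adjusted p = 8.24e-14). RFC4 was at 44.4, 43.5 and 45.4 CPM in Yes WT against 59.5, 62.2 and 60.9 for Yes T348I (log2 fold change of 0.45 with SE 0.05, adjusted p = 1.38e-10), and RFC5 rose by 0.48 (SE 0.05) on the log2 scale. None of these 4 had overlapping groups. RFC1, the large subunit, was at 122, 126 and 119.6 CPM in Yes WT against 125, 133 and 132 for Yes T348I, and Yes T348I replicate 1 lay within the range of Yes WT (log2 fold change of 0.09 with SE 0.04, adjusted p = 0.0498). RFC1 passed the threshold in 5 of 15 alternative analyses, with adjusted p-values of 0.00609 to 0.306, and it did not pass without Yes WT replicate 1 or 3 or without Yes T348I replicate 2 or 3 (adjusted p = 0.120, 0.185, 0.122 and 0.128).

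Of the 5 genes for binding and joining DNA strands, 4 rose and 2 passed 1.2-fold. FEN1, the nuclease that trims Okazaki fragments, was at 73.1, 74.3 and 74.5 CPM in Yes WT replicates 1 to 3 against 111, 103 and 104 CPM in Yes T348I replicates 1 to 3 (log2 fold change of 0.52 with SE 0.04, adjusted p = 4.21e-14). LIG1, the ligase that seals them, was at 66.1, 63.9 and 70.4 CPM in Yes WT against 77.5, 73.4 and 77.9 for Yes T348I (log2 fold change of 0.19 with SE 0.05, adjusted p = 3.70e-04). Of replication protein A, which coats single strands, RPA2 was at 45.4, 49.3 and 46.7 CPM in Yes WT against 63.2, 65.6 and 64.4 for Yes T348I (log2 fold change of 0.45 with SE 0.05, adjusted p = 1.37e-10), and RPA1 rose by 0.27 (SE 0.04). RPA3, the smallest subunit, was at 19.2, 19.2 and 21.7 CPM in Yes WT against 21.4, 18.2 and 21.5 for Yes T348I and did not pass (log2 fold change of 0.03 with SE 0.08, adjusted p = 0.772). Its groups overlapped, with the lowest of the 6 values in Yes T348I replicate 2. RPA3 had no stable direction over the alternative analyses, with log2 fold changes of -0.01 to 0.10.

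The fork protection genes rose to unequal extents. TIPIN was at 19.4, 18.6 and 19.3 CPM in Yes WT replicates 1 to 3 against 30.1, 33.1 and 28.9 CPM in Yes T348I replicates 1 to 3 (log2 fold change of 0.68 with SE 0.07, adjusted p = 2.07e-11). TIMELESS, with which it forms a complex, was at 88.0, 85.1 and 92.6 CPM in Yes WT against 102, 94.8 and 95.6 for Yes T348I (log2 fold change of 0.14 with SE 0.04, adjusted p = 0.00394). CLSPN, which encodes the checkpoint mediator claspin, was at 58.5, 56.6 and 49.8 CPM in Yes WT against 72.5, 81.3 and 83.9 for Yes T348I (log2 fold change of 0.52 with SE 0.05, adjusted p = 4.37e-11). Of the 4 chromatin genes UHRF1 rose most. UHRF1 binds hemimethylated DNA behind the fork for the maintenance methyltransferase, and it was at 50.1, 54.3 and 53.6 CPM in Yes WT replicates 1 to 3 against 91.2, 83.7 and 88.6 CPM in Yes T348I replicates 1 to 3 (log2 fold change of 0.74 with SE 0.05, adjusted p = 2.24e-17). CHAF1A, the large subunit of the histone chaperone CAF-1, was at 48.0, 50.9 and 50.3 CPM in Yes WT against 67.1, 69.3 and 71.1 for Yes T348I (log2 fold change of 0.48 with SE 0.05, adjusted p = 1.78e-11). CHAF1B, another subunit of it, was at 38.5, 38.1 and 34.8 CPM in Yes WT against 48.8, 49.3 and 50.8 for Yes T348I (log2 fold change of 0.42 with SE 0.05, adjusted p = 9.78e-09). No overlap between groups was seen in any of these genes. ASF1B, the chaperone that hands histones to CAF-1, was at 38.7, 42.2 and 38.3 CPM in Yes WT against 47.8, 44.6 and 44.3 for Yes T348I (log2 fold change of 0.20 with SE 0.05, adjusted p = 0.00153).

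Among the 8 regulators, 6 rose past 1.2-fold, and they include the largest change of all members. E2F8 (GRCh38 chromosome 11, 19224063 to 19241620), an atypical E2F known as a repressor, was at 20.3, 23.5 and 22.5 CPM in Yes WT replicates 1 to 3 against 36.2, 39.8 and 36.0 CPM in Yes T348I replicates 1 to 3 (log2 fold change of 0.76 with SE 0.07, adjusted p = 3.32e-13). E2F7, its close relative, was at 27.4, 24.3 and 26.5 CPM in Yes WT against 38.1, 40.0 and 39.5 for Yes T348I (log2 fold change of 0.58 with SE 0.06, adjusted p = 5.16e-11). The activator E2F1 was at 76.4, 75.0 and 74.4 CPM in Yes WT against 97.4, 91.8 and 96.6 for Yes T348I (log2 fold change of 0.34 with SE 0.04, adjusted p = 3.59e-09). The activators E2F2 and E2F3 did not pass. E2F2 was at 16.9, 18.0 and 19.8 CPM in Yes WT against 21.8, 19.3 and 19.0 for Yes T348I (log2 fold change of 0.15 with SE 0.08, adjusted p = 0.104), and over 15 alternatives it passed only without Yes WT replicate 3 (log2 fold change 0.21, adjusted p = 0.0408). The log2 fold change of E2F2 was 0.09 without Yes WT replicate 1, and leaving out Yes T348I replicate 1 gave 0.08 (adjusted p = 0.392 and 0.437). E2F3 was at 69.3, 71.6 and 71.8 CPM in Yes WT against 75.4, 75.6 and 71.4 for Yes T348I (log2 fold change of 0.07 with SE 0.04, adjusted p = 0.196), with Yes T348I replicate 3 inside the Yes WT range. CDC25A, the phosphatase that activates CDK2, was at 22.9, 25.5 and 22.9 CPM in Yes WT replicates 1 to 3 against 37.8, 41.7 and 40.8 CPM in Yes T348I replicates 1 to 3 (log2 fold change of 0.75 with SE 0.06, adjusted p = 1.31e-13). CCNE2 and CCNE1 encode the E cyclins, partners of CDK2 at the G1/S transition. CCNE2 was at 25.1, 24.9 and 26.3 CPM in Yes WT against 37.7, 39.6 and 39.8 for Yes T348I (log2 fold change of 0.62 with SE 0.06, adjusted p = 7.88e-12). CCNE1 was at 19.6, 20.3 and 17.4 CPM in Yes WT against 26.5, 24.8 and 24.0 for Yes T348I (log2 fold change of 0.40 with SE 0.07, adjusted p = 7.78e-06). Neither had overlapping groups.

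Ratios between members of a complex or family were compared within each library, where the scaling of libraries has no effect. The log2 ratio of counts was taken for 10 pairs, chosen with earlier results of these data known. A separation of the groups may thus come from the choice of pair and is a description only. No share over other pairs was taken. Groups did not overlap in 8 pairs, for which the exact two-sided permutation test gave p = 0.10, the smallest that 3 against 3 libraries allow, and 0.125 after adjustment over the 10 pairs. No pair can therefore pass a threshold of 0.05. ORC6 over ORC3 was -0.73, -0.75 and -0.74 in the Yes WT libraries against -0.34, -0.38 and -0.29 in Yes T348I, a difference of 0.40. RFC4 over RFC1 was -1.46, -1.53 and -1.40 in Yes WT against -1.07, -1.10 and -1.12 in Yes T348I, a difference of 0.36. In all 3 Yes T348I libraries these subunit ratios were above those of Yes WT. E2F8 over E2F1 was -1.91, -1.67 and -1.72 in Yes WT against -1.43, -1.20 and -1.42 in Yes T348I, a difference of 0.42. CDT1 over GMNN lay lower in every Yes T348I library, with 0.01, 0.03 and 0.15 in Yes WT against -0.10, -0.26 and -0.15, a difference of -0.23. The pairs GINS2 over GINS3, E2F1 over E2F3, MCM10 over MCM8 and POLE2 over POLE differed by 0.28, 0.27, 0.22 and 0.16, and the last by 0.10 without Yes WT replicate 2. ORC1 over ORC2 was -1.86, -1.83 and -1.91 in Yes WT and -1.57, -1.89 and -1.59 in Yes T348I, with replicate 2 of Yes T348I within the Yes WT range. Its difference of 0.18 (exact permutation p = 0.30) became 0.29 without that library. CCNE2 over CCNE1 also overlapped (difference 0.22, exact permutation p = 0.20).

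**Figure D3:**
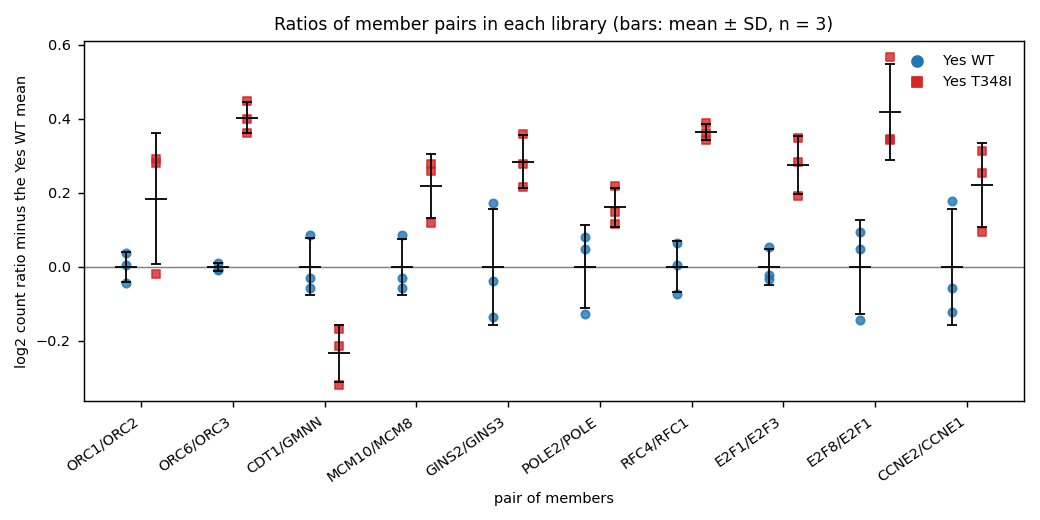
Log2 count ratio of 10 pairs of members in each library, less the mean of Yes WT for the pair (vertical axis); circles are Yes WT, squares Yes T348I, and bars give mean ± SD of 3 libraries. CDT1 over GMNN lies below 0 in all 3 Yes T348I libraries, ORC1 over ORC2 and CCNE2 over CCNE1 overlap, and the other 7 pairs lie above Yes WT.

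Genes of the same process outside the members moved less evenly. Both lists were chosen with earlier results of these data known. Their contrast may come from that choice and is a description only. The list of other pathway genes held 61 genes, of which 60 were tested. Of these 39 rose and 7 fell, with a median log2 fold change of 0.23, where 28.0% of all genes tested rose and 27.3% fell. Past 1.2-fold 19 were higher and 2 lower, where 9.47% of all genes were higher and 12.5% lower. The largest rises were DTL, which marks CDT1 for destruction, by 0.66 (SE 0.04), and FBXO5, the inhibitor of the anaphase-promoting complex, by 0.63 (SE 0.06). POLE3, the small polymerase epsilon subunit, followed with 0.62 (SE 0.04), DSCC1, part of an alternative clamp loader, with 0.53 (SE 0.06), cyclin A2 (CCNA2) with 0.53 (SE 0.04) and the firing factor MTBP with 0.52 (SE 0.07). DTL was at 90.9, 91.1 and 89.2 CPM in Yes WT replicates 1 to 3 against 139, 146 and 143 CPM in Yes T348I replicates 1 to 3, without overlap. ORC4, the remaining core subunit of ORC, was named after its values were seen. It was at 66.2, 66.7 and 63.6 CPM in Yes WT against 63.6, 66.9 and 66.1 for Yes T348I and did not pass (log2 fold change of -0.00 with SE 0.05, adjusted p = 0.980).

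Genes of the switch between RB and E2F were called in both directions. Of its 16 listed genes, 9 rose and 3 fell, where 28.0% of all genes tested rose and 27.3% fell. CDKN1B, which encodes the CDK2 inhibitor p27, had the largest fall of the list. It was at 47.2, 50.2 and 44.5 CPM in Yes WT replicates 1 to 3 against 32.2, 34.8 and 29.8 CPM in Yes T348I replicates 1 to 3, every Yes T348I value under every Yes WT value (log2 fold change of -0.55 with SE 0.06, adjusted p = 1.09e-10). CDKN1A, which encodes the inhibitor p21, was at 49.3, 52.8 and 51.0 CPM in Yes WT against 50.5, 46.9 and 53.7 for Yes T348I and did not pass (log2 fold change of -0.02 with SE 0.05, adjusted p = 0.792). TFDP1, the main partner of the E2F factors, was at 121, 123 and 119 CPM in Yes WT against 163, 162 and 161 for Yes T348I (log2 fold change of 0.42 with SE 0.04, adjusted p = 3.27e-13). Its relative TFDP2 was at 49.4, 49.8 and 49.9 CPM in Yes WT against 37.2, 39.3 and 38.1 for Yes T348I (log2 fold change of -0.38 with SE 0.05, adjusted p = 3.14e-08). RB1 rose by 0.25 (SE 0.05) and CDK2 by 0.39 (SE 0.04). The RB relative RBL2 fell by 0.31 (SE 0.05) on the log2 scale.

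The listed genes of the replication checkpoint outside the members moved little. Of 7 tested 3 rose and 1 fell, none past 1.2-fold, where 28.0% of all genes tested rose and 27.3% fell. Among the members, the checkpoint mediator gene CLSPN rose by 0.52 (SE 0.05), past 1.2-fold. CHEK1, the checkpoint kinase, rose by 0.20 (SE 0.04). ATRIP, which shares exon bases with TREX1 on its strand, had too few counts to be tested. RAD9A, a part of the checkpoint clamp, fell by 0.21 (SE 0.08), but did not pass in 6 of 15 alternative analyses. Among them were those without Yes WT replicate 2 or 3 or Yes T348I replicate 2 or 3 (adjusted p = 0.0598, 0.0814, 0.0732 and 0.115). Of the same clamp, RAD1 rose by 0.29 (SE 0.05) and HUS1 by 0.20 (SE 0.08), neither past 1.2-fold. RAD1 and HUS1 were not followed over the alternative analyses. Of the other falls, CUL4B, a ubiquitin ligase scaffold, fell by 0.15 (SE 0.04). POLD4, the fourth polymerase delta subunit, was at 5.56, 5.74 and 6.62 CPM in Yes WT against 4.82, 3.29 and 5.01 for Yes T348I (log2 fold change of -0.44 with SE 0.14, adjusted p = 0.00993). It rests on few counts, and its log2 fold change without Yes T348I replicate 2 was -0.28 (adjusted p = 0.102) and without Yes WT replicate 3 it was -0.36 (adjusted p = 0.0696).

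**Figure D4:**
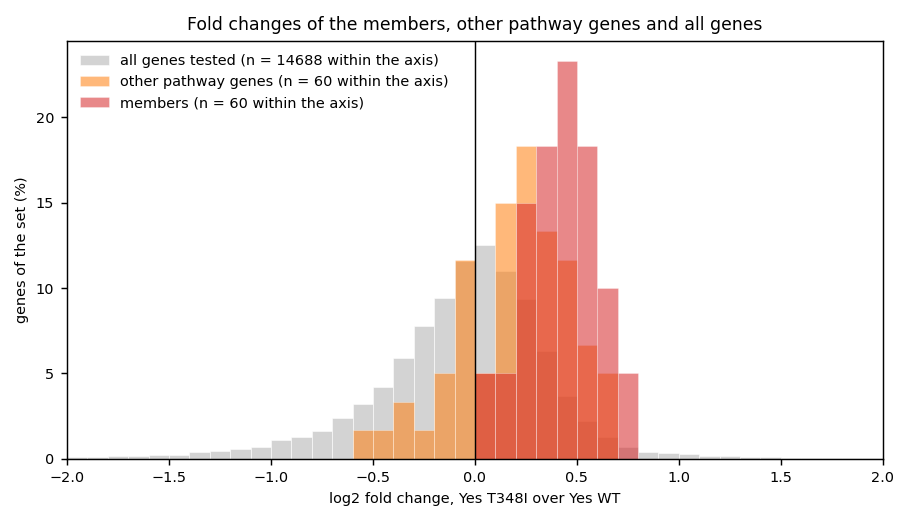
Share of genes (vertical axis, percent of each set) by log2 fold change in bins of 0.1 (horizontal axis) for all genes tested (grey), the other pathway genes (orange) and the members (red); 35 genes lie beyond the axis. The members all lie above 0, with their median at 0.43, the other pathway genes spread from -0.55 to 0.66, and all genes tested centre near 0.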

How the data were processed

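Polyadenylated RNA was sequenced with a strand-specific kit, per the labels' protocols. The authors deposited raw counts of reads per gene in the layout STAR writes. STAR 2.5.1b, Trimmomatic 0.35, CASAVA 1.8.2 and GRCh38 are named, per the submitters' processing notes, with no role, and the sources used here do not give the annotation release. Counts of the reverse strand were taken: the Yes WT libraries had 6.35% ± 0.21 (SD, n = 3) as many on the forward strand, and those of Yes T348I had 6.26% ± 0.11 (SD, n = 3). Summary lines stayed out (reads on no feature 6.37% to 7.87% and ambiguous reads 3.11% to 3.15% per library). Reads fitting several genes were not counted, and 7 members (POLA2, PRIM1, POLD1, POLD3, FEN1, TIPIN and CHAF1B) share exon bases with another gene on their strand.

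Genes were filtered with filterByExpr (minimum count 10), scaled by TMM and tested with edgeR 4.0.16 in R 4.3.3 (quasi-likelihood F-test, and glmTreat against 1.2-fold), with Benjamini-Hochberg adjustment over 14723 genes and a threshold of 0.05. SE is the log2 fold change over the root of F. Ratios used a pseudocount of 0.5. Exon lengths and positions are from GENCODE release 29. The biological coefficient of variation was 2.83%. On simulated data for this comparison (14723 genes), the plain test called 67.2% of the 67 genes set to 1.2-fold, 80.6% of the 67 set to 1.5-fold and 98.5% of the 66 set to 2-fold. Of its 171 calls 7 were false. Far fewer genes were changed there than the 4123 called higher and 4024 called lower in the real data. These rates may therefore differ for the real comparison. Replicates of a group differed beyond counting noise (chi-square per degree of freedom 1.48 to 5.27).

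The members, roles, other pathway genes and pairs were chosen with earlier results of these data known. Values per library are given for the 2 largest changes and the smallest in each role, for members that did not pass and for members of pairs, and further members were added after seeing the values. Of the other pathway genes, the 6 largest rises and falls that passed, CDKN1A, CDKN1B, RB1, TFDP1, CDK2 and CHEK1 are named. ORC4, ATRIP, RAD1 and HUS1 were added after seeing the values. The alternatives were DESeq2 1.42.0, limma-voom (limma 3.58.1), other scalings and filters, the unstranded column, a replicate block and leaving out each library. Besides the marker genes given in the text, 1 more that had been listed is not reported here.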

Additional observations from a re-analysis of the deposited data

How the results depend on the processing

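Over 15 alternatives, 56 or 57 members were higher and none lower. Of the 60, 56 were called higher in all 15 and 59 had a log2 fold change above 0 in all. Their median was 0.39 to 0.46, with all genes at -0.05 to -0.01. Past 1.2-fold, 30 (DESeq2) to 44 members were higher, 35 with upper quartile scaling or library size only, and none lower. Leaving out 1 library gave 56 to 57 higher members, 39 to 44 past 1.2-fold, and 36 to 38 higher and 5 to 7 lower other pathway genes. The log2 fold change of RPA3 turned to -0.0116 with upper quartile scaling, -0.0082 with library size only, -0.0018 without Yes WT replicate 1 and -0.0049 when Yes T348I replicate 1 was left out, within -0.0049 to 0.10 when leaving out each library. That of CDKN1A turned to 0.0078 with no low-count filter, 0.0073 without Yes WT replicate 2 and 0.029 when Yes T348I replicate 2 was left out, within -0.056 to 0.029. The cause was not tested. MKI67 passed without Yes WT replicate 1 (log2 fold change 0.14, adjusted p = 0.00511) or Yes T348I replicate 1 (0.14, adjusted p = 5.72e-04). Same-numbered deviations correlated at -0.04, 0.01 and -0.02 over genes, so no deviation shared by same-numbered libraries was seen. The labels do not say whether the replicate numbers mark pairs, and these values cannot settle it. With the replicate number as a block, 56 members were higher, 42 of them past 1.2-fold, and RFC1 no longer passed (adjusted p = 0.0608). Depth limits RPA3, GINS3, E2F2 and CCNE1 most among the members, with 217 to 266 counts in their smallest library.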

Other observations

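Among the tested genes that are no members, 575 had an E2F word in the promoter window. Of these, 39.5% rose and 21.2% fell, and their median log2 fold change was 0.07. Of the 10157 without such a word, 30.1% rose and 28.6% fell, with a median of -0.01. The difference was not tested. Across the 60 members, the log2 fold change and the mean Yes WT CPM had a Spearman rho of -0.28, a weak relation over genes that share libraries.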
